A study of Mus musculus with 2 samples.

Results

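The Hox genes described here are the 32 genes of the Hoxa, Hoxb, Hoxc and Hoxd clusters, written as the cluster letter followed by digits, whose symbols occur in both deposited count tables, out of 21018 genes that both tables share. They comprise 10 Hoxa genes, 8 Hoxb genes, 7 Hoxc genes and 7 Hoxd genes. Hoxb13 was listed in only 1 table, and Hoxa11 and Hoxc11 only in the other, so these 3 were left out. The measurements are single-cell RNA counts from the ovaries of 3-day-old C57BL mice, made with the 10x Genomics 3′ assay, in which each captured RNA molecule is counted once as a UMI (unique molecular identifier) whatever the length of its gene. The series has 2 libraries, 1 per group, and in both the mothers were given melatonin (MLT) daily from E16.5 until the pups were 3 days old. In the group labelled DEHP_MLT the mother was also gavaged with the plasticizer DEHP, and in the group labelled MLT the vehicle DMSO was given in its place. No group without melatonin was analysed here, and the sources used here do not say how many pups were pooled into a library. The labels conflict, because the sample titled MLT comes with a table named DEHP_MLT and the reverse. Sample titles were followed, and every direction between the groups would turn around if the table names were right. Pairs of values are given throughout with the library labelled MLT first and the library labelled DEHP_MLT second. With 1 library per group no test between conditions was possible. All intervals are exact 95% intervals that cover counting error only.

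Hox genes encode homeodomain transcription factors that give cells their position along the body axis. Genes at the 3′ end of a cluster (low numbers) are used in anterior tissue and genes at the 5′ end (high numbers) in posterior tissue, and genes with the same number in different clusters form a paralog group of near relatives. The proteins bind DNA together with homeodomain partners of the Pbx and Meis families. Mesenchymal cells keep much of their embryonic Hox pattern after birth, and posterior Hoxa genes are known for patterning the ducts that become oviduct and uterus.

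The 2 libraries held 5277 and 4819 barcodes, with medians of 10834 and 13161 UMIs per barcode, and 4 barcode sequences occurred in both. Cells were clustered without the Hox genes, and clusters were named from marker genes. This gave stroma-like (2683 and 2120 cells), smooth muscle-like (150 and 67), pericyte-like (94 and 104), endothelial-like (182 and 104), granulosa-like (591 and 416), surface-like (242 and 360) and germ-like (208 and 473) classes, called by those names without the suffix below. The markers of each class summed highest in that class. Smooth muscle also held 6598 and 7454 CPM of stroma markers, against 8894 and 9254 CPM in stroma. CPM is the usual depth-normalised count, the UMIs of a gene over all UMIs of the class. Surface cells held 1874 and 2077 CPM of granulosa markers, against 2872 and 2600 CPM in granulosa cells. Much of the surface sum came from Gng13. In the surface cluster of the finer clustering described below, Gng13 gave 1007 and 1369 of 1832 and 2087 CPM. Amhr2 stood there at 406 and 340 CPM, but Fst at 81.2 and 86.5 and Hsd3b1 at 18.6 and 10.6 CPM. Gng13 and Lgr5 were also among the leading genes of the surface class. Immune cells (188 and 98) and red blood cells (35 and 677) served as classes that should hold little Hox RNA. Left out of the classes were 217 cells labelled MLT in a cluster led by MHC class II genes that carried granulosa and surface markers, 8 and 396 cells of mixed clusters, and 601 and 1 cells of an unnamed cluster with few UMIs. Red blood cell markers, which include the abundant haemoglobins, stood at 328 to 13628 CPM in the 7 classes labelled MLT and at 5748 to 14288 CPM in those labelled DEHP_MLT. Their part in the differences between the libraries was not tested.

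RefSeq promoter sequences were at hand for 18 of the 32 genes (build GRCm38.p6, 250 bases upstream of the annotated start). They are shown for 4 genes whose levels set the classes apart in the results that follow. Hoxa5 (chr6:52204588-52204837, minus strand) stands for the Hoxa genes that were near absent from granulosa and surface cells, Hoxb4 (chr11:96318017-96318266, plus strand) for the genes highest in pericytes, Hoxd9 (chr2:74697513-74697762, plus strand) for those highest in stroma, and Hoxd4 (chr2:74721728-74721977, plus strand) for a gene present in every somatic class. Each is written 5′ to 3′ on the strand of its gene, with CG dinucleotides in capitals.
Hoxa5: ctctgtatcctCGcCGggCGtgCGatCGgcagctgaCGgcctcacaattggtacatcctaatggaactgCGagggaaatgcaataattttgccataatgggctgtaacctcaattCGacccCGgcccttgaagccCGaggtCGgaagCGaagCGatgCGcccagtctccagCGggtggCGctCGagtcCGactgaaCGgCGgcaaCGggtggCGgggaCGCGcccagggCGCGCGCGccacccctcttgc
Hoxb4: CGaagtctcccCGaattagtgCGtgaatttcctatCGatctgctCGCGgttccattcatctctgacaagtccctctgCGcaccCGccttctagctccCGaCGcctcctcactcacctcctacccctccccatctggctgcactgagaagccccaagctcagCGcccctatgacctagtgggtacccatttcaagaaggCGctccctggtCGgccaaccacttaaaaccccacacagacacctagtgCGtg
Hoxd4: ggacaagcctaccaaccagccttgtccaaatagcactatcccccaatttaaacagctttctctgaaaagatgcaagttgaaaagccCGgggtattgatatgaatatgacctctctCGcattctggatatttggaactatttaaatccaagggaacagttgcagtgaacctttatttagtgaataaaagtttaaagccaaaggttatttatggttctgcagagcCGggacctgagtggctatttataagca
Hoxd9: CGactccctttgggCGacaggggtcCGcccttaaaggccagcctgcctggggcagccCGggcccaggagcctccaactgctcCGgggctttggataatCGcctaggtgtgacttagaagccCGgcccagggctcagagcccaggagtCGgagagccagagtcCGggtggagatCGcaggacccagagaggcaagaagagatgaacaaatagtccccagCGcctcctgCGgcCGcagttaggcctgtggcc
Counted in these windows, Hoxa5 held 28 CG dinucleotides, Hoxb4 14, Hoxd9 13 and Hoxd4 3. The median was 12.5 over the 20 promoter entries of Hox genes (2 genes have 2 entries) and 6 over all 32851 promoter entries. The TATA box sequence TATAAA, searched on both strands, occurred in 3 of the 20 Hox entries (Hoxa10, Hoxb8 and Hoxd4) and in 12.4% of all entries. In these 3 Hox entries it lay only on the strand opposite to the gene. No TATA box of these genes is therefore read from it. The CCAAT box occurred in 11 of 20 and in 33.8%, and the Hox and Pbx motif TGATTNAT in 2 of 20 (Hoxa2 and a Hoxd11 entry) and in 2.82%. The posterior Hox motif TTTATNG occurred in 2 of 20 (Hoxb8 and Hoxd4) and in 9.81%, and the Meis motif TGACAG in 2 of 20 (Hoxa2 and Hoxa3) and in 15.9%. A TATAAA on one strand and a TTTATNG on the other can share bases. Which start site the ovarian cells used was not measured.

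Pericytes, the contractile cells wrapped around small vessels, held the highest summed Hox level of the 7 classes, and germ cells the lowest. The 32 genes together reached 664 and 672 CPM in pericytes, with intervals of 612 to 719 and 626 to 721. Stroma, the connective tissue of the ovary, followed at 462 and 447 CPM (454 to 469 and 439 to 455). These pericyte and stroma intervals did not overlap in either library. Smooth muscle stood at 451 and 371 CPM, and its interval overlapped that of stroma in the library labelled MLT (420 to 483) but not in the other (332 to 414). Endothelial cells held 346 and 347 CPM and surface epithelium 347 and 314 CPM. These 2 classes overlapped in the library labelled MLT, while in the library labelled DEHP_MLT the endothelial interval (326 to 370) lay just above that of the surface (304 to 324). Granulosa cells, the somatic cells around the oocyte, had 204 and 182 CPM, and germ cells 31.9 and 23.0 CPM. The mean log2 ratio of stroma over each class was -0.56 for pericytes (-0.63 to -0.48), 0.15 for smooth muscle (0.06 to 0.24), 0.39 for endothelium (0.33 to 0.45), 0.46 for surface (0.42 to 0.50), 1.23 for granulosa (1.19 to 1.28) and 4.02 for germ cells (3.92 to 4.12). The cells outside the classes were intermediate, with 255 CPM in the MHC class II-led cluster, 281 CPM in the unnamed cluster labelled MLT and 126 CPM in the mixed cells labelled DEHP_MLT.

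**Figure D1:**
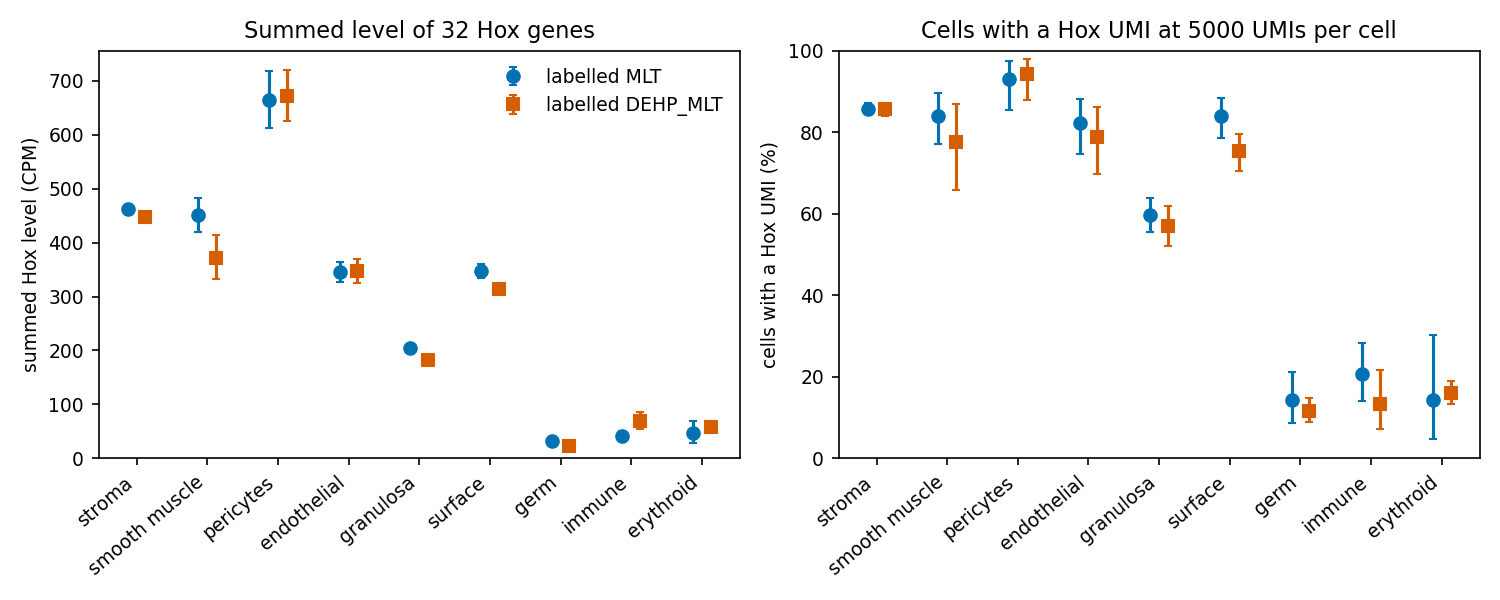
Left, summed level of the 32 Hox genes (CPM) by cell class and library label; right, share of cells (%) with at least 1 Hox UMI after every cell was thinned to 5000 UMIs. Points are single libraries and bars are exact 95% counting intervals; pericytes are highest in both panels, and germ cells lie with immune and red blood cells at the bottom.

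The share of cells with a Hox UMI followed a like order once cells were thinned to 5000 UMIs each, which leaves out shallower cells. Of pericytes 93.0% and 94.2% had a Hox UMI, of stroma 85.8% and 85.7%, of smooth muscle 84.0% and 77.6%, of endothelium 82.2% and 78.8%, and of surface cells 84.0% and 75.3%. Granulosa cells stood apart from these at 59.7% and 57.0%. The thinned share of germ cells, 14.2% and 11.6%, was no higher than that of immune cells (20.6% and 13.3%) or red blood cells (14.3% and 16.0%) of the same library, so no expression is read from this share. Unthinned, 48.1% and 66.0% of germ cells had a Hox UMI, at median depths of 12065 and 74641 UMIs, against 27.7% and 24.5% of immune cells at 7919 and 10858 UMIs. Thinning left out 171 and 0 stroma cells, 6 and 0 smooth muscle cells, 8 and 0 pericytes, 47 and 0 endothelial cells, 35 and 0 granulosa cells, 5 and 0 surface cells, 74 and 0 germ cells and 52 and 0 immune cells. At least 3 different Hox genes were seen in 58.1% and 63.5% of thinned pericytes, 30.5% and 29.9% of stroma cells, and 9.17% and 10.3% of granulosa cells.

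The classes also differed in which of the clusters their Hox RNA came from. In stroma, Hoxd genes gave 44.8% and 42.5% of Hox UMIs and Hoxc genes 36.6% and 36.8%. Hoxc genes gave the majority in granulosa (60.1% and 58.1%) and surface cells (58.2% and 56.7%), but only 5.42% and 6.03% in endothelium. Hoxb genes gave 36.4% and 32.3% in pericytes and 39.5% and 33.9% in endothelium, against 9.55% and 9.79% in stroma. Hoxa genes gave 15.2% and 20.4% in pericytes and 19.7% and 20.3% in endothelium. In the epithelial classes Hoxa genes were close to missing, with 1.03% and 1.73% of Hox UMIs in granulosa cells and 0.698% and 1.56% in surface cells.

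**Figure D2:**
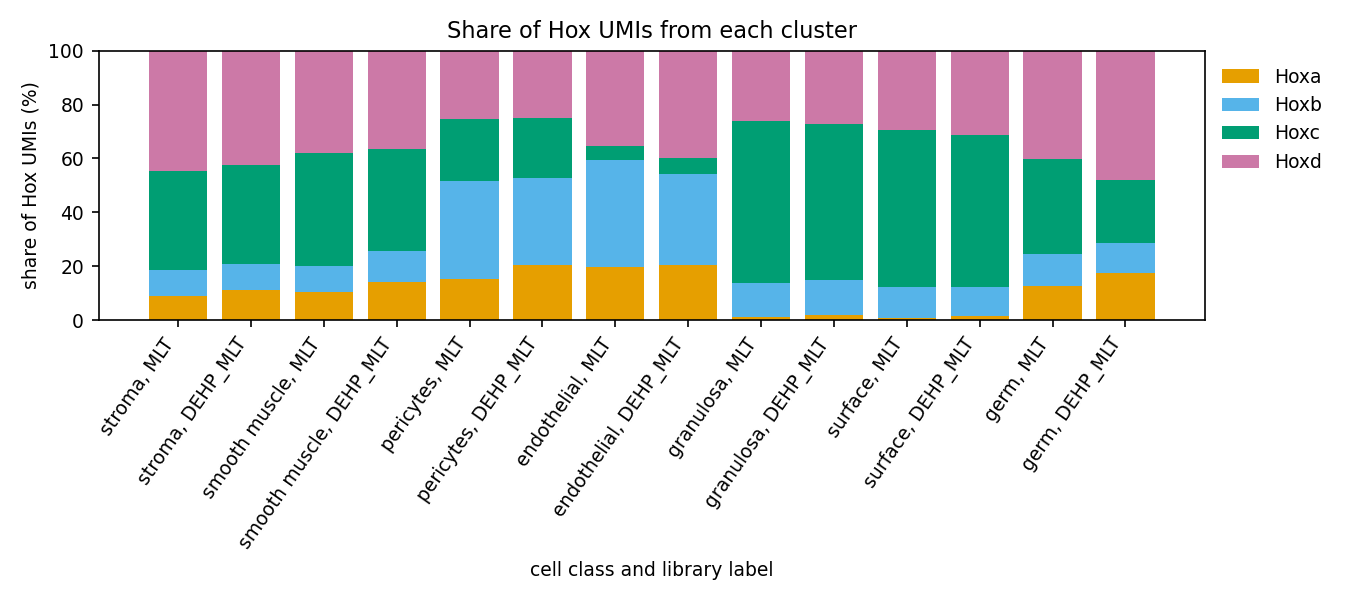
Share of Hox UMIs (%) from Hoxa, Hoxb, Hoxc and Hoxd genes, one bar per cell class and library label. Hoxc genes fill 56.7% to 60.1% of the granulosa and surface bars and 5.42% and 6.03% of the endothelial bars, where Hoxb genes reach 39.5% and 33.9%.

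Of the 32 genes, 14 reached 20 CPM in at least 1 class in both libraries, and these are described singly by cluster. Among the 14, the highest class by the mean of both libraries was pericytes for 6 genes, smooth muscle for 3, stroma for 2, endothelium for 2 and surface for 1, and granulosa or germ cells for none. The 18 others stayed below, with 22.0 CPM of Hoxc10 in stroma labelled DEHP_MLT as their highest single value. A gene was called between stroma and another class where both libraries showed at least a 1.5-fold difference with counting intervals apart and at least 20 CPM in 1 of the classes. Against pericytes, 6 of 12 Hox genes tested were lower in stroma, where 12.5% of all 6963 genes tested were, and 1 of 12 was higher, against 8.99% of all. Against endothelium 4 of 10 were higher in stroma (18.4% of all genes) and 4 of 10 lower (15.5% of all genes). Against granulosa cells 5 of 6 were higher (14.5%) and 0 of 6 lower (17.5%). Against surface cells 3 of 6 were higher (15.4%) and 1 lower (14.9%). Against germ cells 6 of 6 were higher (29.9%) and 0 lower (37.8%). These 6 passed the minimum in stroma only, so none could have been called lower. Against smooth muscle 1 of 7 was higher (3.35%) and 1 lower (4.29%). Here and in the lists below, a gene that reached 20 CPM in only 1 of the 2 classes could be called in 1 direction only. Such counts, and the medians of tested genes that follow, lean to that direction and are description, not support. In granulosa cells the median log2 ratio of stroma over class was 1.63 and 1.53 for the tested Hox genes and -0.06 and -0.04 for all genes tested. In pericytes it was -0.49 and -0.53, against -0.02 and -0.04 for all genes. It was -0.07 and 0.07 in smooth muscle, 0.07 and -0.31 in endothelium, 0.77 and 0.56 in surface cells and 3.63 and 3.89 in germ cells, and that of all genes was 0.01 and -0.02, 0.08 and 0.09, 0.03 and 0.08, and -0.18 and -0.23 in the same order.

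**Figure D3:**
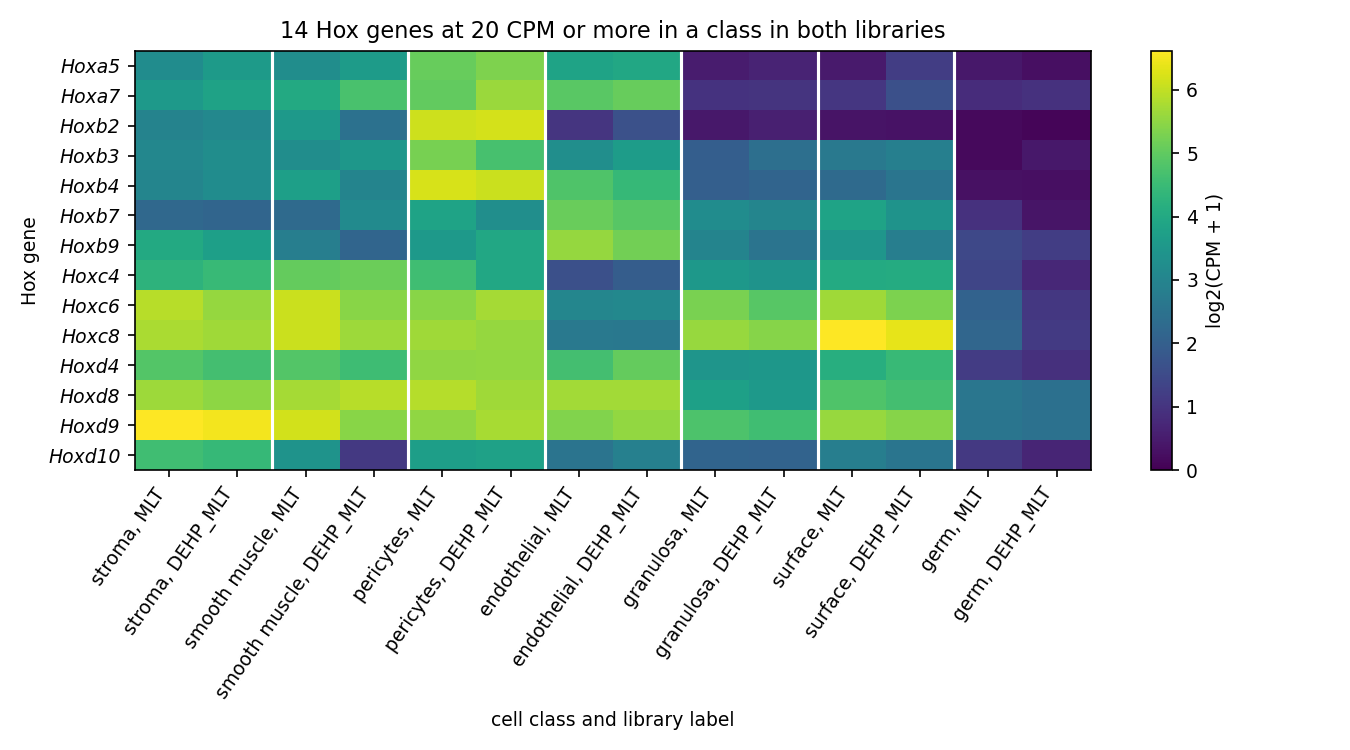
Level of the 14 Hox genes at 20 CPM or more, as log2(CPM + 1), in 7 cell classes and 2 libraries. Hoxb2 and Hoxb4 stand out in pericytes, Hoxd9 in stroma, Hoxc8 in surface cells and Hoxb9 in endothelium, while Hoxa5, Hoxa7 and Hoxb2 are darkest in granulosa, surface and germ cells.

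Of the Hoxa genes, Hoxa5 and Hoxa7 reached the level for single description, and both were highest in pericytes. Hoxa5, a gene known for its part in lung and rib patterning, stood at 33.0 and 39.5 CPM in pericytes, 13.3 and 14.5 in endothelium, 8.33 and 11.3 in stroma and 8.42 and 11.4 in smooth muscle. It was at 0.406 and 0.579 CPM in granulosa cells and at 0.404 and 1.29 in surface cells. Hoxa7 had 31.9 and 48.1 CPM in pericytes, 29.2 and 32.6 in endothelium, 15.2 and 25.1 in smooth muscle and 10.7 and 13.1 in stroma. It was at 0.947 and 0.993 CPM in granulosa cells and 1.08 and 2.07 in surface cells. The intervals of pericytes and endothelium overlapped in both libraries for Hoxa7 and were apart for Hoxa5. Both genes were called lower in stroma than in pericytes (log2 ratios of -1.86 and -1.72 for Hoxa5, -1.50 and -1.80 for Hoxa7), and Hoxa7 also lower than in endothelium (-1.37 and -1.25). The 8 other Hoxa genes stayed at or below 12.1 CPM in every class. Hoxa10, which patterns the uterus, had 1.76 and 2.04 CPM in stroma and 4.40 and 8.58 in pericytes. No UMI of it was seen in granulosa cells, which allows up to 0.203 and 0.248 CPM (3 UMIs), and none in smooth muscle, which allows up to 1.68 and 3.43 CPM.

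Hoxb genes divided the vascular classes, with Hoxb2, Hoxb3 and Hoxb4 highest in pericytes and Hoxb7 and Hoxb9 in endothelium. Hoxb2, which patterns the hindbrain, stood at 68.1 CPM (52.2 to 87.4) and 72.1 CPM (57.5 to 89.3) in pericytes. It had 6.74 and 7.46 CPM in stroma, 10.7 and 4.57 in smooth muscle, and 1.03 and 2.13 in endothelium. The pericyte values did not overlap with any other class in either library, and the ratio of stroma over pericytes was -3.16 and -3.11 (log2). Hoxb4, known for promoting self-renewal of blood stem cells, had 73.6 and 67.0 CPM in pericytes, 26.7 and 20.6 in endothelium and 7.04 and 8.23 in stroma. Hoxb3 reached 37.4 and 24.9 CPM in pericytes, against 8.72 and 11.7 in endothelium and 7.34 and 8.44 in stroma. Both were called lower in stroma than in pericytes (-3.21 and -2.88 for Hoxb4, -2.20 and -1.46 for Hoxb3). In endothelium Hoxb7 stood at 33.3 and 29.1 CPM, against 13.2 and 8.58 in pericytes and 3.69 and 3.45 in stroma. Hoxb9, a regulator of thoracic segment identity, stood in endothelium at 46.9 CPM (40.4 to 54.3) and 35.8 CPM (29.2 to 43.5), against 10.99 and 14.6 in pericytes and 15.1 and 12.4 in stroma. The intervals of Hoxb9 in endothelium and pericytes did not overlap in either library. Hoxb8, below the level for single description, had 17.6 and 13.7 CPM in pericytes and 7.95 and 9.23 in endothelium, with intervals that overlapped in both libraries. Hoxb7 was the Hoxb gene with the highest level in surface cells, at 13.3 and 9.64 CPM.

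Hoxc genes showed the opposite split, with endothelium at the bottom of the somatic classes. Hoxc8, a gene of thoracic identity, was highest in surface cells at 97.3 CPM (90.3 to 105) and 81.9 CPM (76.8 to 87.3). It stood at 53.6 and 50.2 CPM in stroma, 67.3 and 49.1 in smooth muscle, 50.6 and 46.4 in pericytes and 47.5 and 41.7 in granulosa cells, but 5.39 and 5.32 in endothelium. It was the sole Hox gene called lower in stroma than in surface cells (-0.85 and -0.70). Hoxc6 was near even across stroma (59.4 and 46.6 CPM), smooth muscle (67.3 and 42.3), pericytes (42.9 and 51.5) and surface cells (49.9 and 38.9), with 38.2 and 28.6 in granulosa cells. Endothelium held 7.18 and 7.45 CPM of it. Stroma over endothelium gave 2.88 and 2.49 for Hoxc6 and 3.10 and 3.02 for Hoxc8 (log2). Hoxc4 was highest in smooth muscle, at 31.98 and 34.3 CPM against 18.5 and 21.1 in stroma, and was called lower in stroma (-0.76 and -0.67). Hoxc5, below the level for single description, stood at 17.0 and 19.6 CPM in surface cells, against 4.94 and 6.54 in granulosa cells.

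Hoxd genes gave the largest share of Hox RNA in stroma. Hoxd9, which acts in hindlimb and lower spine patterning, was the most abundant Hox gene of stroma at 96.5 CPM (93.0 to 100) and 89.9 CPM (86.4 to 93.4). It had 71.3 and 42.3 CPM in smooth muscle, 45.1 and 53.2 in pericytes, 40.01 and 45.8 in endothelium, 47.5 and 41.8 in surface cells and 26.2 and 22.9 in granulosa cells. Stroma was above each class in both libraries, and the gene was called higher than in pericytes (1.08 and 0.74), endothelium (1.25 and 0.96), granulosa (1.84 and 1.93) and surface cells (1.01 and 1.08). Hoxd10, a gene of lumbar identity, stood at 22.9 and 20.5 CPM in stroma, 12.1 and 12.9 in pericytes and 3.38 and 3.31 in granulosa cells. In smooth muscle it was at 9.54 and 1.14 CPM, from 17 and 1 UMIs, and was called higher in stroma there. Hoxd8 was even over the 4 mesenchymal and vascular classes, from 44.1 to 59.4 CPM, and stood at 26.9 and 23.8 in surface cells and 12.6 and 10.8 in granulosa cells. Hoxd4 was highest in pericytes at 45.1 and 45.5 CPM and had 27.9 and 24.0 in stroma, 24.1 and 32.3 in endothelium and 9.87 and 10.3 in granulosa cells. Reads of Hoxd4 and Hoxd3, and of Hoxc5 and Hoxc10, may be divided uncertainly, because exons of these pairs overlap on the same strand in the GENCODE vM21 annotation.

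In several paralog groups the leading member changed with the class. In group 4, Hoxb4 gave 50.8% and 50.3% of the UMIs in pericytes, Hoxc4 gave 41.0% and 49.2% in smooth muscle and Hoxd4 gave 48.8% and 41.3% in stroma. In group 5, Hoxc5 led in granulosa (63.5% and 71.8%) and surface cells (79.2% and 83.2%), while Hoxa5 led in pericytes (61.2% and 65.7%). In group 7, Hoxa7 led in pericytes (70.7% and 84.8%) and Hoxb7 in granulosa (89.7% and 87.6%) and surface cells (92.5% and 82.4%). In group 8, Hoxd8 led in endothelium (79.4% and 77.8%) and Hoxc8 in surface cells (77.2% and 76.5%). Group 6 did not follow this pattern, as Hoxc6 gave at least 58.3% of its UMIs in each of the 7 classes. Nor did group 9, which Hoxd9 led in every class but endothelium. There Hoxb9 led in the library labelled MLT (48.2%) and Hoxd9 in the other (52.7%). The low members were summed by position as well. Groups 11 to 13 gave 1.11% and 1.57% of Hox UMIs in stroma and at most 0.766% in the other somatic classes.

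At a finer clustering, again without Hox genes and described by group after the values were seen, granulosa cells formed groups with different Hox levels. Together these groups held 611 and 425 cells, against 591 and 416 in the granulosa class, so they include cells from outside it. The group led by Hsd3b1, Fst and Inha held 450 and 321 cells and a summed level of 169 and 157 CPM. The group led by Aldh1b1, Cst12, Gstm6 and Aldh1a1 held 161 and 104 cells and 329 and 309 CPM. Their intervals did not overlap in either library (162 to 177 against 310 to 349, and 149 to 165 against 287 to 332). Hoxc8 stood at 37.0 and 35.6 CPM in the Hsd3b1-led group and 83.3 and 79.0 CPM in the Aldh1b1-led group. Hoxd9 had 19.6 and 16.8 CPM in the former and 51.6 and 50.1 in the latter, and Hoxd4 6.88 and 8.17 against 21.7 and 22.0. These 3 genes, of 4 tested, were called higher in the Aldh1b1-led group, where 6.18% of 6890 genes were. Called lower were 0 of 4, against 6.39% of all. Hoxd4 and Hoxd9 reached 20 CPM only in the Aldh1b1-led group, so they could not have been called lower, and the count is description only. The fourth, Hoxc6, had 35.2 and 27.2 CPM against 52.5 and 39.7. The values of the Aldh1b1-led group lay near those of surface cells for Hoxc8 (98.9 and 79.3 CPM in the surface cluster of the same clustering) and Hoxd9 (47.5 and 42.3). Hoxa genes were near 0 in both groups, with 4 and 5 UMIs of Hoxa5 in the Hsd3b1-led group and 2 and 2 in the other.

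Marker levels describe these groups further. Granulosa markers summed to 3103 and 2709 CPM in the Hsd3b1-led group and 2177 and 2093 in the Aldh1b1-led group. Foxl2, the transcription factor that keeps granulosa identity, stood at 525 and 562 CPM and at 312 and 326 CPM. Fst, Inha, Aard and Kitl were also lower in the Aldh1b1-led group, and Hsd3b1 stood at 434 and 310 against 35.3 and 25.0 CPM. Amhr2 (338 and 269 against 492 and 408 CPM) and Gng13 (90.7 and 140 against 588 and 694 CPM) went the other way. Surface markers were at 69.2 and 66.5 CPM and at 195 and 217 CPM, against 2798 and 2076 CPM in the surface cluster. Stroma markers were lower in the Aldh1b1-led group (437 and 470 CPM) than in the Hsd3b1-led group (567 and 611 CPM). Median depths were 17134 and 20994 UMIs and 16501 and 15485 UMIs. The MHC class II-led cells labelled MLT stood between the groups at 272 CPM of summed Hox level.

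**Figure D4:**
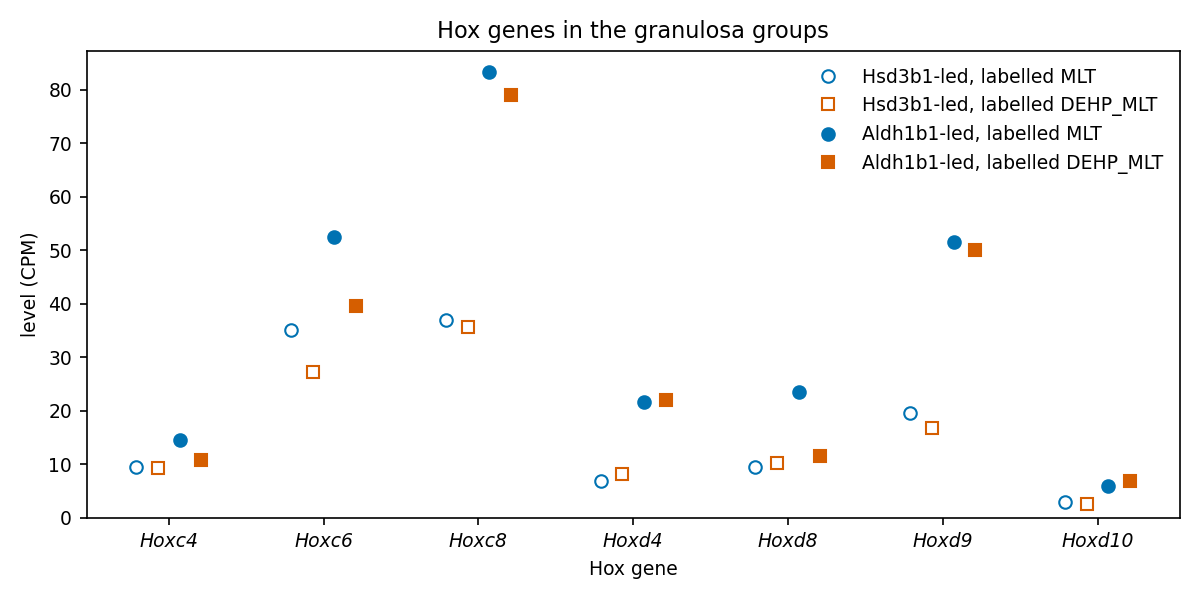
Levels (CPM) of 7 Hox genes in the Hsd3b1-led (open symbols) and the Aldh1b1-led (filled symbols) granulosa groups, for the library labelled MLT (circles) and DEHP_MLT (squares). Hoxc8, Hoxd4 and Hoxd9 are higher in the Aldh1b1-led group in both libraries.

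Stroma was more even. Its clusters with cells of both libraries ranged from 383 to 502 CPM, and the cluster led by Lum, Dlk1 and Sfrp1 held 502 and 501 CPM. At the finer clustering, dividing stroma cells led by the mitotic genes Cenpa and Cenpf had 554 and 494 CPM (514 to 596 and 461 to 527). Those led by the replication genes Hist1h1b and Pclaf had 416 and 416 CPM (398 to 434 and 399 to 435). Hoxc4 stood at 37.8 and 46.2 CPM in the Cenpa-led cells and at 15.8 and 16.2 CPM in the Hist1h1b-led cells, with intervals apart in both libraries. Hoxd9 had 130 and 99.3 CPM against 84.9 and 78.1 CPM. It was lowest in the Lum-led cluster labelled DEHP_MLT at 65.7 CPM, where Hoxa7 stood at 30.8 CPM (16.4 CPM labelled MLT).

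In germ cells the summed Hox level was 8.47% and 6.34% of that over the 6 somatic classes of the same library. The summed stroma markers, collagens and others that germ cells should lack, stood at 4.82% and 3.47% of their somatic level. The percentage varied between genes. Leaving Hoxa4 aside, the genes with at least 50 somatic UMIs in each library ran from 0% to 23.4% (Hoxb6, from 3 germ cell UMIs) in the library labelled MLT and from 0% to 13.2% in the other. Hoxd9 was at 7.36% and 7.30%, Hoxc8 at 6.49% and 2.25% and Hoxb4 at 2.83% and 2.54%. Hoxd8 and Hoxb9 were at 13.5% and 13.2% and at 12.1% and 12.3%. Hoxa4 stood apart, at 59.5% and 66.6%, with 1.38 CPM (0.711 to 2.41) and 1.998 CPM (1.54 to 2.54) in germ cells from 12 and 66 UMIs. A pair of the genes at the 5′ ends was seen mainly in germ cells. Hoxa13, which patterns digits and genitalia, had 7 and 16 UMIs in germ cells, 2 in granulosa cells labelled MLT and 0 in the other somatic classes. Hoxc13, known from hair and nail, had 10 and 28 UMIs in germ cells against 2 and 2 in all somatic classes together. These levels were low, at 0.803 and 0.484 CPM for Hoxa13 and 1.15 and 0.847 CPM for Hoxc13. Another 11 UMIs of Hoxa13 and 9 of Hoxc13 lay in cells outside the 7 classes. Hoxd1 had 4 UMIs in all.

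**Figure D5:**
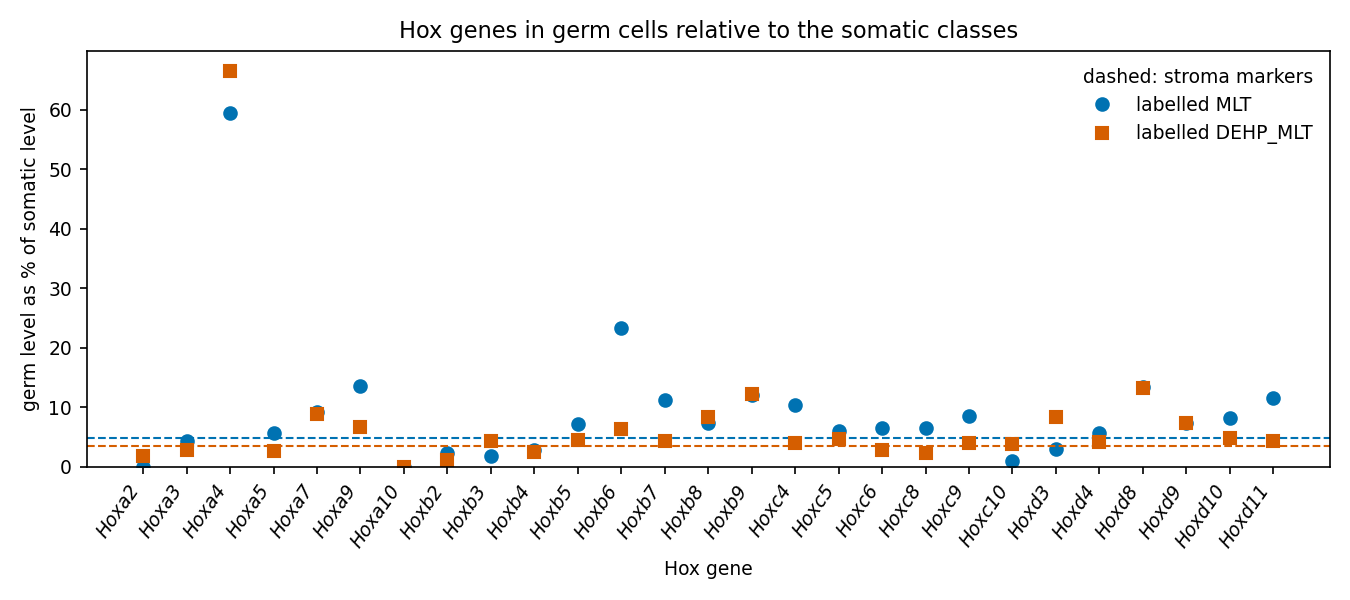
Level of each Hox gene in germ cells as a percentage of its level over the 6 somatic classes of the same library, for the 27 genes with at least 50 somatic UMIs in each library. Dashed lines show summed stroma markers (4.82% and 3.47%); Hoxa4 lies far above at 59.5% and 66.6%.

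The log2 ratio of the summed level, DEHP_MLT over MLT, was -0.05 in stroma (-0.08 to -0.01), 0.02 in pericytes (-0.14 to 0.17) and 0.01 in endothelium (-0.11 to 0.13). It was -0.16 in granulosa (-0.24 to -0.08), -0.14 in surface cells (-0.21 to -0.07), -0.28 in smooth muscle (-0.47 to -0.09) and -0.46 in germ cells (-0.65 to -0.26). With separate clustering of the libraries the surface value turned to 0.07, and the granulosa value was -0.01 with equal weight per cell. Most stroma cells labelled MLT came from a cluster with Col4a4 and Itih5 among its leading genes (1421 cells, 467 CPM) and most labelled DEHP_MLT from one led by Tcf21, Id2 and Tgfbi (1281 cells, 447 CPM). The median ratio of the tested Hox genes was -0.13 in stroma, -0.28 in smooth muscle, 0.01 in pericytes, -0.01 in endothelium, -0.18 in granulosa cells and -0.18 in surface cells. That of all genes tested was -0.12, -0.09, -0.10, -0.13, -0.13 and -0.15 in the same order. In germ cells the stroma markers were also lower in the library labelled DEHP_MLT (243 and 178 CPM). At the finer clustering, germ cells led by Npm2 and Zp3 (125 and 134 cells) held 45.4 and 22.0 CPM of summed Hox level, with intervals apart. Those led by Ttn, Neb and Dazl (83 and 340 cells) held 27.9 and 23.7 CPM, with intervals that overlapped. The part of this make-up in the germ cell ratio was not tested.

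A single gene was called between the libraries by the same fold and level with intervals apart. Hoxd9 in smooth muscle stood at 71.3 CPM (59.4 to 84.8, 127 UMIs) and 42.3 CPM (29.8 to 58.3, 37 UMIs), a log2 ratio of -0.74. It was 1 of 7 Hox genes tested there, where 7.62% of all genes were called. The smooth muscle markers of that class were lower in the library labelled DEHP_MLT too (10807 and 9063 CPM, Myh11 at 807 and 391), its stroma markers stood at 6598 and 7454 CPM, and the part of this in the ratio was not tested. No smooth muscle cluster formed when the library labelled DEHP_MLT was clustered on its own. None of 8 Hox genes was called in stroma (8.98% of all genes), of 11 in pericytes (9.07%), of 7 in endothelium (12%), of 3 in granulosa (7.32%) or of 5 in surface cells (10.2%), and no Hox gene reached the minimum in germ cells (4.71%).

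The DNA-binding partners of Hox proteins were compared class by class from a list of 9 genes, all measured. Higher in stroma were 6 of 7 tested against granulosa cells (14.5% of all genes), 6 of 7 against surface cells (15.4%), 4 of 7 against endothelium (18.4%), 3 of 7 against pericytes (8.99%), 5 of 7 against germ cells (29.9%) and 1 of 7 against smooth muscle (3.35%). Pbx3 had 172 and 144 CPM in stroma and 42.9 and 41.8 in granulosa cells. Meis1 had 115 and 106 CPM in stroma and 13.1 and 11.4 in endothelium, and Meis2 was the 1 member called lower in stroma than in any class, namely smooth muscle (64.8 and 63.0 against 123 and 137 CPM). Meis2 in pericytes, at 115 and 71.2 CPM, was the sole partner called between the libraries, of 7 tested in that class, where 9.07% of all genes were. Pknox2 stood at 42.1 and 37.9 CPM in stroma and at most 17.1 in every other class.

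Of 11 noncoding RNAs listed from inside the clusters, 7 were measured. Hoxb3os, antisense to Hoxb3, had 30.8 and 30.04 CPM in pericytes and at most 7.86 CPM elsewhere. Of these RNAs 2 could be tested between stroma and pericytes, and both, Hoxb3os and 1 not reported here, were called lower in stroma, as were 12.5% of all genes. Hoxd3os1 was spread over the somatic classes at 6.85 to 25.5 CPM and had 2.29 and 1.15 CPM in germ cells. In the GENCODE vM21 annotation the exons of Hoxb3os overlap Hoxb2 and Hoxb3, and those of Hoxd3os1 overlap Hoxd3 and Hoxd4 on the opposite strand. The sources used here do not say whether the counting used strand, so these pairs may share reads.

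Of 22 homeobox genes listed from outside the clusters, 21 were measured. They summed to 761 and 617 CPM in surface cells, 577 and 640 in germ cells, 515 and 464 in pericytes, 496 and 401 in granulosa cells and 317 and 295 in stroma. Of 6 tested against granulosa cells 4 were lower in stroma (17.5% of all genes) and 2 higher (14.5%), and of 7 against surface cells 5 were lower (14.9%) and 2 higher (15.4%). Irx3, an Iroquois factor of granulosa cells, stood at 290 and 230 CPM in surface cells, 133 and 98.4 in granulosa cells and 9.00 and 3.52 in stroma. Emx2, needed for the gonad to form, had 169 and 133 CPM in granulosa cells and 36.8 and 24.4 in stroma, and Lhx9 had 195 and 160 CPM in surface cells and 18.5 and 17.2 in stroma. These 3 were highest in granulosa or surface cells, the classes with the lowest Hoxa shares. Prrx1, a mesenchymal factor, was highest in pericytes at 409 and 355 CPM. The oocyte factors Lhx8 and Nobox stood at 262 and 305 and at 256 and 291 CPM in germ cells. Of 8 neighbours of the clusters and ParaHox genes, only Evx1 was measured, with 0.23 CPM in germ cells labelled MLT as its highest value.

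Listed chromatin regulators of the Hox clusters, among them genes known for keeping them on (Kmt2a, Men1, Kat6a) or off (the Polycomb genes), were all measured. These 19 of 19 varied less between classes. Their summed level was 704 to 914 CPM in stroma, pericytes, endothelium, granulosa, surface and germ cells and 773 and 652 CPM in smooth muscle. Kmt2a, the Trithorax methyltransferase, stood at 141 and 104 CPM in stroma and 27.0 and 20.2 in germ cells. The Polycomb genes Eed and Phc1 were higher in germ cells, at 102 and 102 against 32.6 and 25.8 CPM in stroma, and at 63.8 and 64.2 against 24.0 and 22.3 CPM. Of the 15 regulators tested against germ cells, 4 were called higher in stroma (29.9% of all genes) and 4 lower (37.8%). Between the libraries 8 calls were made in 104 tests of a gene in a class, where 4.71% to 12% of all genes were called in a class. All 8 were lower in the library labelled DEHP_MLT: Kat6a in smooth muscle, endothelium and surface cells, Ezh2 in smooth muscle and surface cells, and Suz12 in granulosa, surface and germ cells. The calls among the Hox partners (1 in 39 tests) and the homeobox genes outside the clusters (4 in 26 tests) were also all lower. The share of all genes called lower was not counted apart from those called higher.

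The 10 genes outside the Hox family whose log2(CPM + 1) profile was most like the summed Hox level, over the 14 points of 7 classes and 2 libraries, were Anxa5, Cuedc1, Camk1, Cd81, AI506816, Rhoc, Eif4h, H2afz, Calm3 and Sh3bgrl. Pearson's r was 0.99 for Anxa5 and 0.97 for Sh3bgrl among 6471 genes considered. The 14 points share libraries and depth, and r without the germ cell values was not computed. Anxa5, which binds membrane phosphatidylserine, stood at 323 and 291 CPM in pericytes, 259 and 254 in stroma, 135 and 98.6 in granulosa cells and 21.7 and 15.3 in germ cells.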

How the data were processed

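The authors deposited 1 table of raw UMI counts per library, genes by cell barcodes, with no normalization. Per the submitters' processing notes, Cell Ranger (no version stated) and Seurat 4.2.0 were used with the mm9 build. The reference at hand was GRCm38, so no coordinates were taken for the counts, and promoters are RefSeq entries of GRCm38.p6.

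From the counts, barcodes were kept from 500 genes upward and up to 20% of mitochondrial UMIs (5199 of 5277 and 4819 of 4819). Scrublet called 0 and 3 doublets, too few to have worked, so doublets remain. After its 3 calls were dropped, 10015 cells were normalized and clustered with scanpy 1.11.5 (2000 variable genes without Hox genes, 30 components, 15 neighbours, Leiden resolution 0.5) into 21 clusters. A cluster took the class with the largest share of markers that were seen in at least 25% of its cells and at least 1 log2 unit above the other cells, with at least 3 such markers. Counts were summed per class and library and divided by all UMIs (CPM). Intervals are exact Poisson and Clopper-Pearson 95% intervals. They cover counting error only, and depths per library limit them. Ratios are log2((CPM + 1) / (CPM + 1)). Intervals of log2 ratios of summed levels are normal approximations from the UMI counts. The calling rule was tested on simulated counts.

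Single genes are described where both libraries reached 20 CPM in a class. Of other lists at most 6 members are named, the highest and those called, and of the similar genes the 10 with the highest r and at least 50 CPM. Some genes that these rules would name are not reported here. The members and lists were chosen with earlier results of these data known. Alternatives tried were a common UMI floor of 6923, resolution 1.0, each library clustered alone, equal weight per cell, marker purity, other thinning, pseudocount and minimum. The naming rule for clusters was set after the data were seen.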

Additional observations from a re-analysis of the deposited data

How the results depend on the processing

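Of the values recomputed under alternatives for the summed levels, the shares and the count of called genes, 71 stayed within the 95% counting interval of the reported value (the count of called genes, within 1.5 times it), 46 moved outside it, and the order of stroma against each class did not turn around in any setting run. With a common UMI floor, stroma over surface was 0.41 (log2). With each library clustered alone it was 0.50, DEHP_MLT over MLT was 0.07 in surface cells (opposite in sign, interval -0.00 to 0.13) and -0.67 in germ cells, and no smooth muscle value could be had. With equal weight per cell, stroma over granulosa was 1.16 and over germ cells 3.64, and DEHP_MLT over MLT was 0.14 in endothelium, -0.01 in granulosa, -0.06 in surface and -0.82 in germ cells. Keeping only cells whose own class had the most marker UMIs gave stroma ratios of -0.64 (pericytes), 0.24 (endothelium) and 4.19 (germ cells), and library ratios of 0.25 in endothelium and -0.76 in germ cells. It left 7 granulosa and 7 surface cells labelled DEHP_MLT, too few for a value. The pericyte and endothelial values of this setting rest on few cells labelled DEHP_MLT. These were 26 of 104 pericytes and 21 of 104 endothelial cells, against 77 of 94 and 155 of 182 labelled MLT. Adding the MHC class II-led cluster to granulosa, an alternative chosen after seeing the data, gave 1.18 and a library ratio of -0.27. Keeping only clusters with at least 20% of cells from each library, also chosen after seeing the data, moved no log2 ratio of summed levels beyond its interval. The summed level of stroma labelled DEHP_MLT itself moved from 447 CPM (439 to 455) to 458 CPM.

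Thinned to 2000 UMIs, the shares with a Hox UMI were 56.6% and 55.8% in stroma, 55.3% and 47.8% in smooth muscle, 67.0% and 70.2% in pericytes, 48.9% and 48.1% in endothelium, 32.7% and 32.2% in granulosa, 49.6% and 45.6% in surface and 7.69% and 5.07% in germ cells. With at least 2 Hox UMIs at 5000 they were 62.3% and 61.3%, 62.5% and 52.2%, 79.1% and 87.5%, 53.3% and 46.2%, 25.5% and 29.3%, 54.0% and 47.5%, and 1.49% and 1.27% in the same order. Both settings lower a share by construction. Without a minimum level 4 genes were called between the libraries in place of 1: Hoxd9 in smooth muscle, Hoxb9 in surface cells (10.1 and 6.11 CPM) and Hoxc6 and Hoxc8 in germ cells (3.21 and 1.12 CPM, 3.56 and 1.18 CPM). Hoxd9 in smooth muscle ranged from -0.998 to -0.74 over the settings in which it was called. These were the main one, the other pseudocount, no minimum, the common UMI floor and equal weight per cell. Resolution 1.0 and marker purity were not among them. No paired analysis was possible because each group has 1 library. The smooth muscle, pericyte and endothelial values labelled DEHP_MLT rest on 67, 104 and 104 cells, and the germ cell values labelled MLT on 278 Hox UMIs (28.3 to 35.9 CPM).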
